A study of Mus musculus with 12 samples.

Results

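Core circadian clock genes were examined in RNA-seq data of liver from 12 male C57BL/6J mice. The 10 genes were taken by symbol from the 54532 genes of the expression table: the activators *Arntl*, *Npas2* and *Clock*, the repressors *Cry1*, *Per2*, *Per3* and *Ciart*, the nuclear receptors *Nr1d1* and *Nr1d2*, and the output factor *Dbp*. Levels are in FPKM, in which the fragments of a gene are divided by its length and by the depth of the library. A gene was tested when its average over all 12 mice reached 1 FPKM: 9 of the 10 did, among 11083 genes in all, and *Npas2*, at a mean of 0.537 FPKM, did not. The study asked how HYA, a linoleic acid (LA) metabolite, acts on the liver of mice on a high-fat diet. From 5 weeks of age, mice were fed for 26 weeks under a 12-h light/dark cycle, and the livers of 3 mice per diet are analysed here. ND-fed mice received a normal diet, control mice a high-fat diet, HYA-treated mice the high-fat diet with 1% HYA, and LA-treated mice the high-fat diet with 1% LA. HYA (10-hydroxy-cis-12-octadecenoic acid) carries a hydroxyl group that gut lactic acid bacteria add to LA. The hour at which each liver was taken is not given in the sources used here. All p-values measure the spread between mice of this feeding experiment.

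In the mammalian clock, ARNTL (also named BMAL1) pairs with CLOCK or with its relative NPAS2, and the pair binds E-box sequences and raises transcription of *Per*, *Cry*, *Nr1d* and *Dbp* genes. PER and CRY proteins then repress that pair, while the nuclear receptors encoded by *Nr1d1* and *Nr1d2* repress *Arntl* and *Npas2* through ROR response elements. In liver the transcripts of the activator arm and those of its E-box targets peak at different hours of the day, and meal times can shift this rhythm.

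Fragments assigned to genes ran from 17169064 in ND-fed mouse 2 to 25220880 in HYA-treated mouse 3. *Alb*, the most abundant of the hepatocyte markers, stood at a mean of 20497 FPKM in control mice, and 12 of 13 hepatocyte markers were matched by symbol, with none at 0 (transferrin, listed as *Tf* where the table has *Trf*, was not used here). The 12 hepatocyte markers summed to 54024 to 57730 FPKM across ND-fed mice, 39058 to 44485 FPKM across control mice, 48876 to 50802 FPKM with HYA and 41819 to 43645 FPKM with LA, and 9 of the 12 were lower and 1 higher when control mice were compared with ND-fed mice, where 19.1% of all tested genes were lower and 16.2% higher, the shares to set beside the marker counts that follow. Stellate cell markers (most abundant *Dcn*) summed to 41.8 FPKM in ND-fed and 99.6 FPKM in control mice, with 7 of 10 higher. Macrophage markers (most abundant *Lyz2*) summed to 395 and 492 FPKM, with 7 of 13 higher and 2 lower. Endothelial markers (most abundant *Eng*) summed to 97.3 and 121 FPKM, with 5 of 9 higher. Cholangiocyte markers (most abundant *Sox9*) summed to 3.88 and 5.98 FPKM, lymphocyte markers (most abundant *Nkg7*) to 3.48 and 2.55 FPKM, and pancreas and fat markers (most abundant *Cela1*) to 9.64 and 4.26 FPKM, with 3 of the last list's 8 genes at 0 in every mouse. With HYA the stellate sum was 72.9 FPKM, with 4 of 10 markers lower than in control mice, the cholangiocyte sum 3.39 FPKM, with 1 of 2 tested lower, the macrophage sum 406 FPKM, with 1 of 13 lower, and the endothelial sum 120 FPKM, with 0 of 9 called, while 1 of 12 hepatocyte markers was higher, where 2.8% of all tested genes were called in that comparison. The part of these shifts in the clock gene comparisons of control with ND-fed mice, or of HYA-treated with control mice, was not tested, and in bulk tissue fewer cells of a type and less RNA per cell cannot be told apart.

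Promoter sequences with matches to clock motifs are shown because most of the 10 genes varied together from mouse to mouse. RefSeq promoters (build GRCm38.p6, 250 bases before to 50 after each start) were found for 9 of the 10 genes, 12 promoters in all; *Per2* had no entry. Both strands were searched for the E-box CACGTG, the E'-box CACGTT or AACGTG, the D-box TTATGTAA, TTACATAA or TTACGTAA, and the ROR element TAGGTCA or TGGGTCA. Of 32851 promoters of this length, 7.15% held an E-box, 4.68% an E'-box, 1.06% a D-box and 6.45% a ROR element. Matches were 3 E-boxes in *Ciart* (at least 3 in 0.0883% of promoters), an E-box and an E'-box in *Cry1*, and 2 D-boxes in *Per3* (at least 2 in 0.0244%). *Nr1d1* had an E'-box, and *Arntl* had a ROR element 30 bases after the later of its listed starts. The matches, in capitals, are printed 5′ to 3′ on the minus strand for *Ciart* (chr3:95882255-95882356), *Cry1* (chr10:85185097-85185145), *Per3* (chr4:151044804-151044882) and *Nr1d1* (chr11:98775388-98775417).
Ciart: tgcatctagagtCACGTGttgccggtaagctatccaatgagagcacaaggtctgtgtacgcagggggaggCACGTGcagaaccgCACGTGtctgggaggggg
Cry1: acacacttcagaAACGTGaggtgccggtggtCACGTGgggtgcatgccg
Per3: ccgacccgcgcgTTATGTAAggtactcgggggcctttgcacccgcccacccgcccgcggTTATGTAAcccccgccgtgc
Nr1d1: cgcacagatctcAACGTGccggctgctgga
A match describes letters only, and the promoters of *Npas2*, *Clock*, *Dbp* and *Nr1d2* held none of these words in this window.

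By mean over the 12 mice the order of levels was *Nr1d1* 33.2, *Dbp* 29.6, *Nr1d2* 18.2, *Per2* 6.13, *Clock* 4.27, *Per3* 3.52, *Cry1* 3.20, *Ciart* 2.12, *Arntl* 1.45 and *Npas2* 0.537 FPKM, a scale per kilobase of gene. The ranges over mice of each pair of neighbours in that order overlapped. Within single mice, *Nr1d2* was above *Per2* and *Arntl* above *Npas2* in all 12, while the other neighbouring pairs changed order between mice. Some of these genes share bases with another annotated gene, and the strand setting of the counting is not given in the sources used here. *Dbp* overlaps *Sphk2* on the opposite strand by 737 bases, and *Sphk2* varied 2.25-fold between its lowest and highest mouse where *Dbp* varied 12.6-fold. *Nr1d1* overlaps *Thra* on the opposite strand by 1075 bases, with *Thra* at a mean of 3.91 FPKM. *Per3* lies inside the annotated span of *Camta1* (mean 0.255 FPKM), *Clock* overlaps the pseudogene *Ube2n-ps1* and *Gm43658*, *Ciart* overlaps the antisense *C920021L13Rik*, *Arntl* overlaps *Gm45355*, and *Npas2* overlaps *Gm3617* and *Gm20428*.

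*Arntl* (ENSMUSG00000055116, chr7:113207465-113314126) encodes the obligate partner in the activating pair. In replicates 1, 2 and 3, *Arntl* stood at 1.98, 1.73 and 2.04 FPKM in ND-fed mice, 0.210, 0.174 and 3.23 FPKM in control mice, 1.80, 0.946 and 0.156 FPKM in HYA-treated mice, and 2.78, 2.06 and 0.316 FPKM in LA-treated mice. The ND-fed mice lay close together, whereas each high-fat diet held mice far apart: control mice 1 and 2, HYA-treated mouse 3 and LA-treated mouse 3 were low, control mouse 3 was the highest of all, and the groups overlapped. *Npas2* (ENSMUSG00000026077, chr1:39193731-39363236) encodes a relative of CLOCK that can take its place beside ARNTL. *Npas2* stood at 0.475, 0.512 and 0.453 FPKM in ND-fed mice, 0.0679, 0.0293 and 1.84 FPKM in control mice, 0.377, 0.127 and 0.0675 FPKM in HYA-treated mice, and 1.53, 0.910 and 0.0562 FPKM in LA-treated mice. The mice lowest in *Arntl* were again low and control mouse 3 again the highest, and the range over the high-fat mice, 62.9-fold, was the widest of the 10 genes. The lowest value rests on 3 fragments (95% Poisson interval 0.619 to 8.77) and the highest on 183 (157 to 212), counting error only. *Clock* (ENSMUSG00000029238, chr5:76209868-76304792) encodes the usual partner of ARNTL. *Clock* stood at 6.33, 5.71 and 5.84 FPKM in ND-fed mice, 2.71, 2.72 and 4.32 FPKM in control mice, 4.81, 3.62 and 2.61 FPKM in HYA-treated mice, and 4.78, 4.71 and 3.08 FPKM in LA-treated mice. Every mouse on a high-fat diet was below every ND-fed mouse, and the 3 high-fat groups overlapped one another with a 1.84-fold range, the narrowest of the 10 genes.

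**Figure D1:**
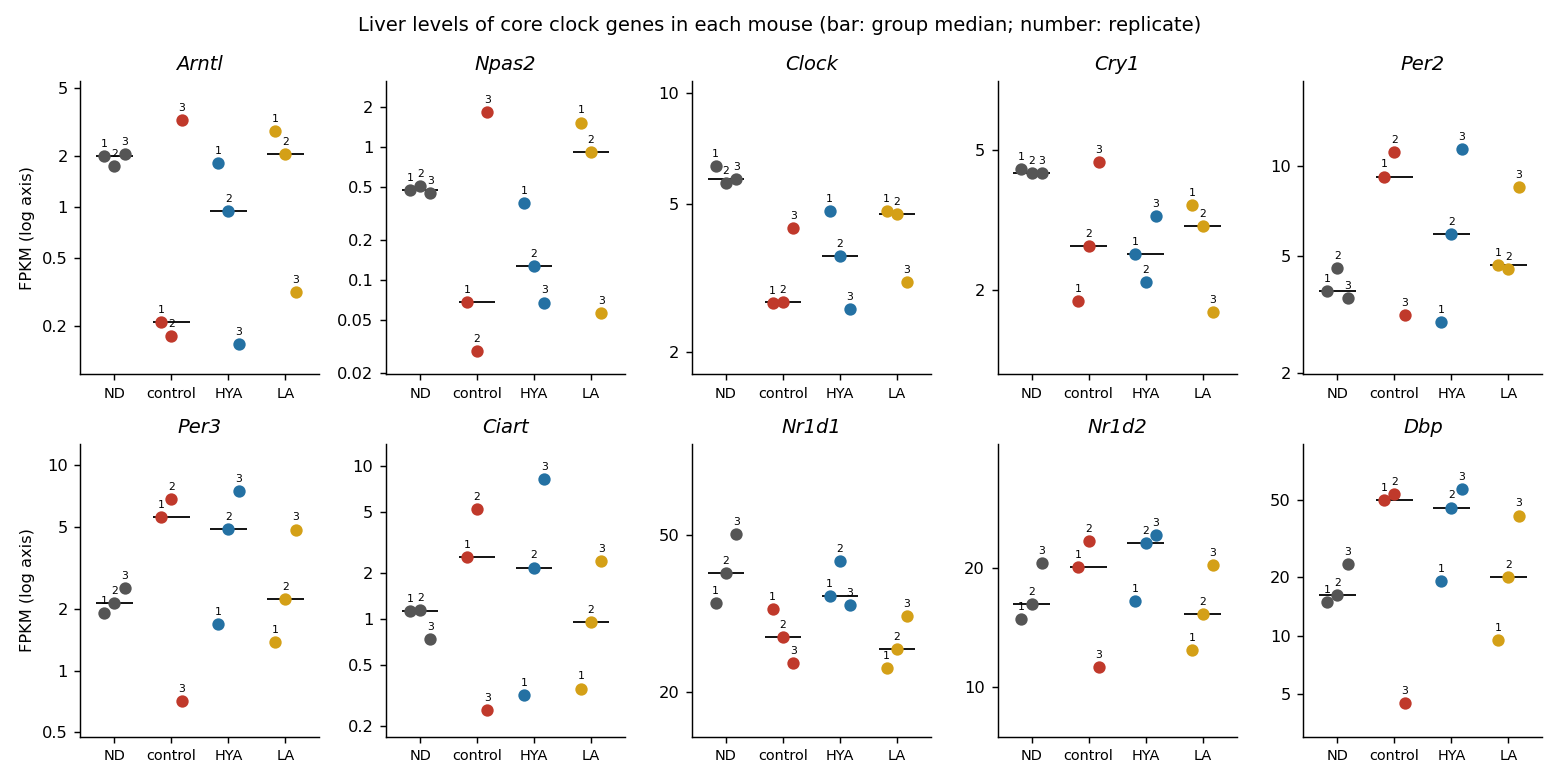
FPKM (log axis) of each of the 10 genes in each mouse, by diet, with the replicate number beside each point and a bar at the group median. ND-fed mice lie close together for *Arntl* (1.73 to 2.04 FPKM), while control mice span 0.174 to 3.23 FPKM.

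Among the repressors, *Per2* (ENSMUSG00000055866, chr1:91415982-91459324) encodes a PERIOD protein that carries CRY into the repressing complex. *Per2* stood at 3.79, 4.54 and 3.601 FPKM in ND-fed mice, 9.24, 11.2 and 3.15 FPKM in control mice, 2.99, 5.92 and 11.4 FPKM in HYA-treated mice, and 4.64, 4.52 and 8.53 FPKM in LA-treated mice. Control mice 1 and 2, HYA-treated mouse 3 and LA-treated mouse 3, low in *Arntl*, were the 4 highest, and the groups overlapped in each comparison tested. *Per3* (ENSMUSG00000028957, chr4:151003652-151044665), whose promoter holds the 2 D-boxes printed above, encodes a relative of PER2. *Per3* stood at 1.91, 2.12 and 2.51 FPKM in ND-fed mice, 5.59, 6.84 and 0.713 FPKM in control mice, 1.68, 4.91 and 7.49 FPKM in HYA-treated mice, and 1.38, 2.23 and 4.87 FPKM in LA-treated mice. Control mouse 3 was the lowest and HYA-treated mouse 3 the highest, a 10.5-fold range that took in all ND-fed values. *Ciart* (ENSMUSG00000038550, chr3:95878503-95882251), with the 3 E-boxes printed above, encodes CHRONO, a repressor that binds ARNTL. *Ciart* stood at 1.13, 1.14 and 0.738 FPKM in ND-fed mice, 2.53, 5.26 and 0.256 FPKM in control mice, 0.319, 2.17 and 8.19 FPKM in HYA-treated mice, and 0.353, 0.954 and 2.38 FPKM in LA-treated mice. Control mouse 3, HYA-treated mouse 1 and LA-treated mouse 1 were the lowest, on 12, 14 and 17 fragments, and the high-fat mice spanned 31.99-fold around the ND-fed values. *Cry1* (ENSMUSG00000020038, chr10:85131700-85185064) encodes a cryptochrome that blocks the activating pair directly. *Cry1* stood at 4.43, 4.30 and 4.30 FPKM in ND-fed mice, 1.87, 2.68 and 4.62 FPKM in control mice, 2.53, 2.11 and 3.26 FPKM in HYA-treated mice, and 3.48, 3.05 and 1.73 FPKM in LA-treated mice. Control mouse 3 was the only high-fat mouse above the ND-fed mice, and HYA-treated mouse 3 was the highest of its diet for *Cry1* though the lowest for *Arntl*.

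*Nr1d1* (ENSMUSG00000020889, chr11:98767932-98775333) encodes REV-ERBα, a heme-binding repressor of *Arntl* that also acts on lipid and bile acid genes in liver. *Nr1d1* stood at 33.6, 40.1 and 50.4 FPKM in ND-fed mice, 32.4, 27.6 and 23.7 FPKM in control mice, 34.9, 43.0 and 33.3 FPKM in HYA-treated mice, and 23.0, 25.7 and 31.1 FPKM in LA-treated mice. All control and all LA-treated mice were below all ND-fed and all HYA-treated mice, at the closest 32.4 against 33.3 FPKM. The share of all tested genes that separate in this way was not counted. The 1.87-fold range over high-fat mice was far narrower than that of *Dbp*. *Nr1d2* (ENSMUSG00000021775, chr14:18204054-18239127) encodes REV-ERBβ, which overlaps with REV-ERBα in function. *Nr1d2* stood at 14.8, 16.2 and 20.6 FPKM in ND-fed mice, 20.1, 23.4 and 11.2 FPKM in control mice, 16.5, 23.2 and 24.3 FPKM in HYA-treated mice, and 12.4, 15.3 and 20.4 FPKM in LA-treated mice. Its groups overlapped in every comparison, with control mouse 3 lowest and HYA-treated mouse 3 highest. *Dbp* (ENSMUSG00000059824, chr7:45705088-45710203) encodes a PAR bZIP factor that binds D-boxes and drives rhythmic liver enzymes. *Dbp* stood at 14.97, 16.2 and 23.3 FPKM in ND-fed mice, 50.02, 53.5 and 4.53 FPKM in control mice, 19.1, 45.5 and 57.0 FPKM in HYA-treated mice, and 9.45, 20.04 and 41.4 FPKM in LA-treated mice. Control mouse 3 was the lowest and HYA-treated mouse 3 the highest, and each high-fat group overlapped the ND-fed mice.

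The comparison of control with ND-fed mice addresses the high-fat diet without a supplement. The hour of collection is not given, so its part in this and the later comparisons of diets was not tested. *Clock* and *Nr1d1* were lower in control mice and no clock gene was higher, 2 of 9 tested against 35.3% of all tested genes, so the share was no larger than the background. *Clock* averaged 3.25 ± 0.928 FPKM (SD, n = 3) in control and 5.96 ± 0.328 FPKM in ND-fed mice, a log2 fold change of -0.73 (SE 0.195, 95% interval -1.16 to -0.30, limma adjusted p = 0.0145), lower in 3 of 3 mice. *Nr1d1* averaged 27.9 ± 4.37 FPKM and 41.4 ± 8.46 FPKM, a log2 fold change of -0.55 (SE 0.166, 95% interval -0.91 to -0.18, limma adjusted p = 0.0263), again lower in 3 of 3 mice. Fold changes are on log2(FPKM + 1), which understates those of genes near or below 1 FPKM. With the added threshold of an absolute log2 fold change above 1, 0 of 9 clock genes passed in limma (2 at an unadjusted p under 0.05 without that threshold), against 3.88% of all tested genes. For the genes that did not pass, log2 fold changes were -0.68 for *Arntl* (adjusted p = 0.342), -0.45 for *Cry1* (adjusted p = 0.161), 0.70 for *Per2* (adjusted p = 0.253), 0.49 for *Per3*, 0.033 for *Nr1d2*, 0.40 for *Dbp* and 0.60 for *Ciart*. The 95% interval of *Dbp* ran from -1.39 to 2.19, wide enough to hold shifts of either sign.

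Control mouse 3 decided several of these calls. Without it *Arntl* (log2 fold change -1.29, adjusted p = 0.0438) and *Cry1* (-0.72, adjusted p = 0.0223) were past the limma test as lower, *Per2* (1.17, adjusted p = 0.0452) as higher, and *Nr1d1* was not past it (-0.44, adjusted p = 0.0870). *Clock* was not past the limma test without control mouse 1 (log2 fold change -0.64, adjusted p = 0.0587). Nor was *Nr1d1* without ND-fed mouse 2 (-0.56, adjusted p = 0.0596), ND-fed mouse 3 (-0.40, 0.0955) or control mouse 2 (-0.54, 0.0571). With each mouse rescaled to the same total (TPM), the median over all tested genes stood at 0.17 in place of -0.043 on the log2 scale, and neither gene passed (adjusted p = 0.0518 for *Clock* and 0.157 for *Nr1d1*). Relative to that median *Clock* stood at -0.69 before and -0.78 after rescaling, and *Nr1d1* at -0.50 and -0.49. With limma-voom on recovered fragments *Clock* passed (adjusted p = 0.0263) and *Nr1d1* did not (0.0884). *Nr1d1* was also not past the limma test with no filter (adjusted p = 0.0583) or with only the 2 groups compared (0.0524). Its log2 fold change was -0.55 in both fits, and *Clock* passed in both (limma adjusted p = 0.0355 and 0.0131).

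**Figure D2:**
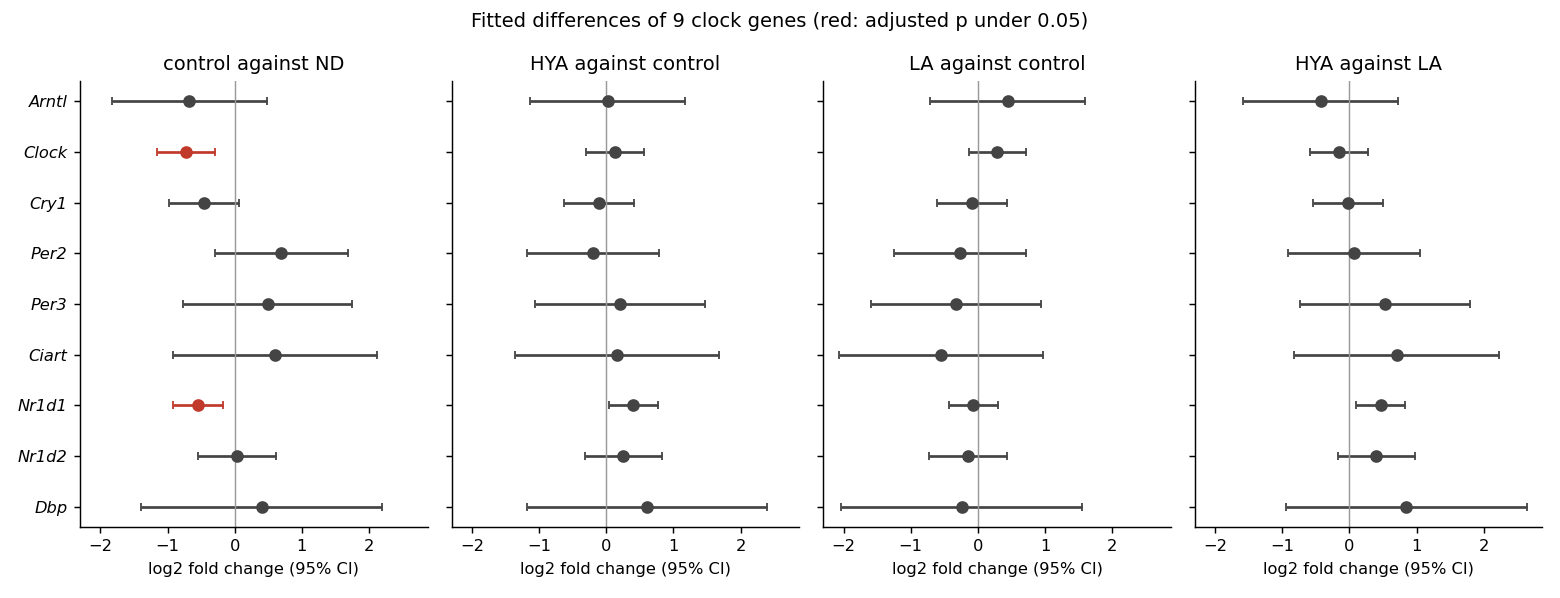
Log2 fold change of each tested gene with its 95% interval (bars) in 4 comparisons of diets (red: adjusted p under 0.05), from limma on log2(FPKM + 1) over 12 mice. *Clock* and *Nr1d1* lie below 0 in control against ND-fed mice, and the interval of *Dbp* (-1.39 to 2.19) is the widest.

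The comparison of HYA-treated with control mice addresses the supplement, with both groups on the high-fat diet. With limma, 0 of 9 clock genes passed (1 at an unadjusted p under 0.05, 0 with limma-voom), against 2.8% of all tested genes. That background moved with the fit: the 174 higher and 136 lower genes behind it became 0 and 0 without HYA-treated mouse 2 or with only the 2 groups compared, 17 and 12 when control mouse 1 was left out, 377 and 276 when control mouse 2 was, 253 and 196 with a replicate block, 97 and 400 with TPM, and 152 and 585 of 14353 genes with limma-voom. *Nr1d1* was the gene at the unadjusted threshold, at 37.1 ± 5.21 FPKM (SD, n = 3) with HYA and 27.9 ± 4.37 FPKM in control mice, higher in 3 of 3 mice without overlap, a log2 fold change of 0.40 (95% interval 0.03 to 0.77, limma adjusted p = 0.226). The other log2 fold changes ran from -0.20 for *Per2* to 0.61 for *Dbp*, with *Arntl* at 0.023 and *Clock* at 0.13. For LA-treated against control mice limma called 0 of 9 clock genes (0 at an unadjusted p under 0.05, 0 with limma-voom), as for 0% of all tested genes. Log2 fold changes there ran from -0.55 for *Ciart* (-1.18 to -0.021 when 1 mouse was left out) to 0.45 for *Arntl* (0.13 to 1.06), and *Nr1d1* stood at -0.066 (95% interval -0.43 to 0.30).

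HYA and LA differ by the hydroxyl group and a double bond and were fed at the same dose, 1%, for the same 26 weeks. Between HYA-treated and LA-treated mice limma called 0 of 9 clock genes (1 at an unadjusted p under 0.05, 0 with limma-voom), against 0.487% of all tested genes, 26 higher and 28 lower, which became 0 and 0 without HYA-treated mouse 2, LA-treated mouse 1 or LA-treated mouse 2 and with no filter, and became 61 and 33 with only the 2 groups compared, 146 and 112 with a replicate block, 31 and 134 with TPM and 72 and 236 of 14353 genes with limma-voom. The clock gene at the unadjusted threshold was *Nr1d1*, 37.1 ± 5.21 FPKM (SD, n = 3) with HYA and 26.6 ± 4.14 FPKM with LA, without overlap, a log2 fold change of 0.47 (95% interval 0.10 to 0.83, limma adjusted p = 0.181). *Nr1d2* stood at 0.40 (95% interval -0.17 to 0.98), *Dbp* at 0.85 (-0.94 to 2.64) and *Arntl* at -0.42 (-1.58 to 0.73) on the same scale. Leaving out 1 mouse gave 0.36 to 0.58 for *Nr1d1*, 0.24 to 0.58 for *Nr1d2*, 0.34 to 1.35 for *Dbp*, 0.16 to 0.99 for *Per3* and -0.88 to -0.085 for *Arntl*. Against ND-fed mice, HYA-treated mice had 0 of 9 clock genes past limma (2 at an unadjusted p under 0.05, 0 with limma-voom) where 16.6% of all tested genes passed, with *Clock* at a log2 fold change of -0.60 (adjusted p = 0.0605) and *Cry1* at -0.57 (adjusted p = 0.126). Without HYA-treated mouse 1 *Clock* was past the limma test (-0.77, adjusted p = 0.0315), and in a fit of only these 2 groups *Cry1* was (adjusted p = 0.0214). LA-treated mice had 1 of 9, against 31.1% of all tested genes: *Nr1d1* was lower than in ND-fed mice by a log2 fold change of -0.61 (SE 0.166, 95% interval -0.98 to -0.24, limma adjusted p = 0.0174), in 3 of 3 mice. That call was not past the limma threshold without ND-fed mouse 3 (adjusted p = 0.0652), LA-treated mouse 1 (0.0692) or LA-treated mouse 2 (0.0506), nor with TPM (adjusted p = 0.0899), where *Nr1d1* stood at -0.56 relative to the median of all genes against -0.57 before. The comparisons share control or ND-fed mice, so their values are not independent.

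Mice of the same diet lay farther apart on a high-fat diet than on the normal diet for most clock genes. Within-diet SDs of log2(FPKM + 1), pooled over the 3 high-fat diets, exceeded the SD of ND-fed mice for 8 of 9 clock genes and for 55.2% of all tested genes. The median over the 9 genes was 0.72 in high-fat and 0.14 in ND-fed mice, against medians of 0.11 and 0.099 over all tested genes. *Dbp*, the D-box activator, had an SD of 1.32 in high-fat and 0.32 in ND-fed mice, ranking 5 of 11083 genes by high-fat spread. *Ciart* ranked 17 (SD 1.12), *Per3* 42 (0.93), *Arntl* 57 (0.85) and *Per2* 108 (0.72). *Cry1* had an SD of 0.38 in high-fat and 0.021 in ND-fed mice. *Nr1d1* was the exception, with 0.21 in high-fat and 0.29 in ND-fed mice. By spread in ND-fed mice *Dbp* ranked 581, *Nr1d1* 758, *Nr1d2* 1241, *Arntl* 6706 and *Cry1* 10710, so the clock genes were not uniformly close together on the normal diet relative to other genes. An SD from 3 mice is imprecise, and the difference in spread was not tested.

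**Figure D3:**
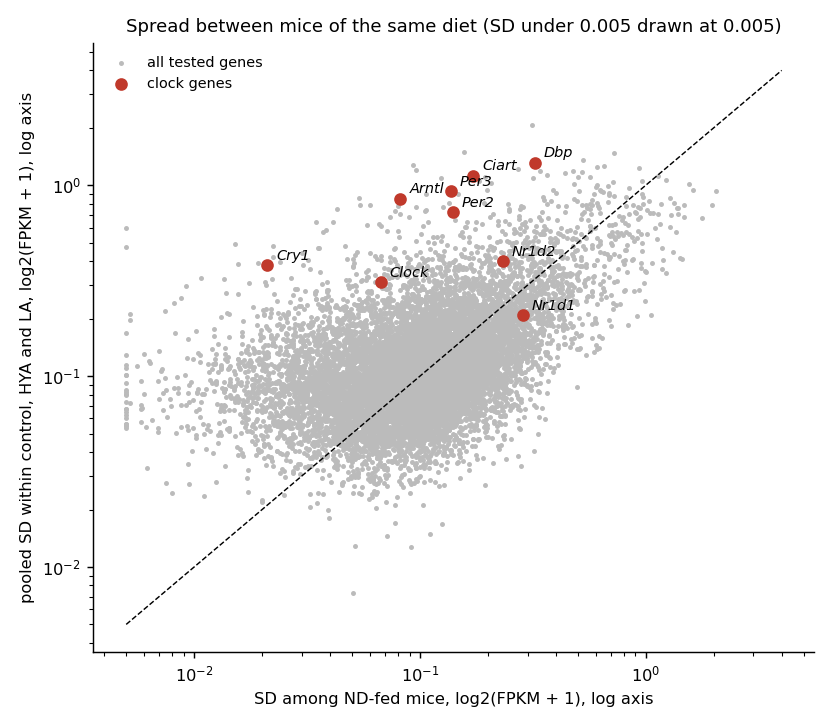
SD of log2(FPKM + 1) between mice of a diet, pooled over the 3 high-fat diets, against the SD of ND-fed mice, both on log axes, for the 9 tested clock genes and all tested genes. Of the 9 clock genes, 8 lie above the diagonal and *Nr1d1* lies below it.

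Variation from mouse to mouse was then compared with *Arntl* over the 9 high-fat mice, as log2(FPKM + 1). Of the 9 mice, 4 lay between 0.156 and 0.316 FPKM of *Arntl*, 4 between 1.80 and 3.23 FPKM, and HYA-treated mouse 2 at 0.946 FPKM, with every diet on both sides, so each r rests largely on the distance between those ends. Exact two-sided permutation tests over 362880 pairings were adjusted over 11083 genes, and 5 of the 9 pairs passed, 4 of them among 8 tested genes where 2.81% of all tested genes passed. *Npas2*, the alternative partner, ran with *Arntl* (r = 0.929, exact p = 4.13e-05, adjusted p = 0.0158, rho = 0.917, exact p = 0.00131). *Clock* had r = 0.945 (exact p = 0.00197, rho = 0.833, exact p = 0.00827) and was just short of the threshold over all genes (adjusted p = 0.0561). By rank, adjusted over all genes, neither passed (adjusted p of rho, exact test, 0.0510 for *Npas2* and 0.119 for *Clock*). Without control mouse 3 and LA-treated mouse 1, the mice farthest from the median of *Arntl*, r was 0.884 for *Npas2* and 0.991 for *Clock* over 7 mice.

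Of the PERIOD genes among the 10, *Per3* passed over all genes as opposite to *Arntl* and *Per2* did not. *Per3* had r = -0.966 (exact p = 5.51e-05, adjusted p = 0.0171, rho = -0.967, exact p = 0.000165), and *Per2*, just short of the threshold over all genes, r = -0.931 (exact p = 0.00147, adjusted p = 0.0509, rho = -0.883, exact p = 0.00308). Over the same 7 mice r was -0.935 for *Per3* and -0.952 for *Per2*. *Dbp* had r = -0.934 (exact p = 0.000143, adjusted p = 0.0224, rho = -0.967, exact p = 0.000165), and -0.932 over 7 mice. *Ciart* had r = -0.908 (exact p = 0.00103, adjusted p = 0.0429, rho = -0.95, exact p = 0.000353), and -0.858 over 7 mice. *Nr1d2* had r = -0.915 (exact p = 0.000686, adjusted p = 0.0376, rho = -0.933, exact p = 0.00075), and -0.817 over 7 mice. By rank, adjusted over all genes, *Per3* and *Dbp* (adjusted p of rho, exact test, 0.0274 each), *Ciart* (0.0346) and *Nr1d2* (0.0422) also passed and *Per2* (0.0735) did not. *Nr1d1* did not pass, with r = -0.503 (exact p = 0.163, adjusted p = 0.503, rho = -0.533, exact p = 0.147) and -0.002 over 7 mice. *Cry1* did not pass either, with r = 0.653 (exact p = 0.0596, adjusted p = 0.303, rho = 0.467, exact p = 0.212) and 0.251 over 7 mice, so that r rests on the mice left out. Without HYA-treated mouse 3 instead, r of *Cry1* was 0.824 (exact p = 0.0120).

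**Figure D4:**
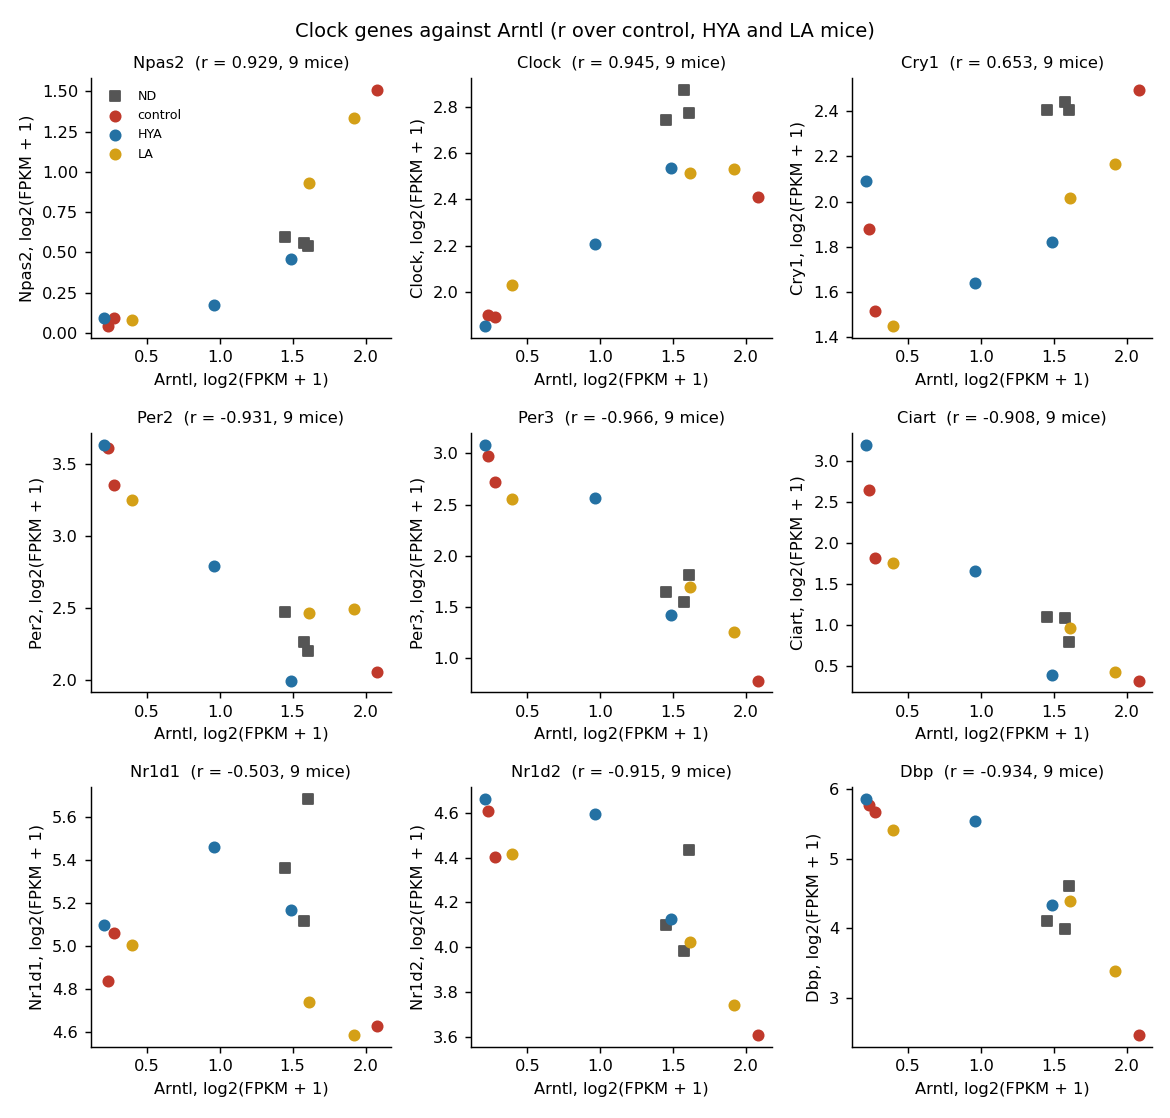
Level of each of the other 9 genes against *Arntl*, both as log2(FPKM + 1), for the high-fat mice (circles coloured by diet) and the ND-fed mice (squares), with Pearson's r over the 9 high-fat mice in each panel. Over all genes *Npas2* (r = 0.929, exact test, adjusted p = 0.0158 by r and 0.0510 by rank), *Per3* (-0.966, 0.0171 and 0.0274) and *Dbp* (-0.934, 0.0224 and 0.0274) passed by r, while *Clock* (0.945, 0.0561 and 0.119), *Cry1* (0.653) and *Nr1d1* (-0.503) did not.

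With each diet's mean removed, r with *Arntl* was 0.954 for *Npas2*, 0.962 for *Clock*, -0.947 for *Per2*, -0.971 for *Per3*, -0.959 for *Dbp*, -0.958 for *Nr1d2*, -0.903 for *Ciart*, 0.704 for *Cry1* and -0.62 for *Nr1d1*. Permutation within diets allows 216 pairings, with a smallest possible exact p of 0.00463. *Npas2*, *Per3*, *Dbp*, *Nr1d2* and *Ciart* stood at that limit. Exact p within diets was 0.00926 for *Clock* and *Per2*, 0.125 for *Cry1* and 0.148 for *Nr1d1*. These p-values were not adjusted over all genes. Across the 45 pairs of the 10 genes, r lay between 0.785 and 0.945 within *Arntl*, *Npas2* and *Clock*. It lay between 0.81 and 0.975 within *Per2*, *Per3*, *Dbp*, *Ciart* and *Nr1d2*, and between -0.966 and -0.758 across these sets. *Nr1d1* ranged from -0.74 with *Npas2* to 0.727 with *Nr1d2*, and *Cry1* from -0.743 with *Dbp* to 0.792 with *Npas2*. Of 6 measures of each mouse set beside *Arntl*, added after the data were seen, 0 had an exact p under 0.05: fragments on genes (r = -0.432, exact p = 0.259, rho = -0.417, exact p = 0.270), summed FPKM of all genes (r = -0.066, exact p = 0.865, rho = -0.217, exact p = 0.581) and of hepatocyte markers (r = 0.095, exact p = 0.808, rho = 0.033, exact p = 0.948). The summed markers of macrophages (r = 0.423, exact p = 0.298, rho = 0.583, exact p = 0.108), stellate cells (r = 0.345, exact p = 0.354, rho = 0.35, exact p = 0.359) and endothelial cells (r = 0.235, exact p = 0.517, rho = 0.467, exact p = 0.212) completed the 6, and the lowest p adjusted over the 6 measures was 0.708.

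Related genes were read from lists, first against *Arntl* over the same 9 mice. Members and lists were chosen with earlier results of these data known, so their shares past this test are descriptive. All 3 PAR bZIP and E4BP4 factors, the relatives and the rival of DBP at D-boxes, passed: *Nfil3* ran with *Arntl* (r = 0.926), and *Tef* (-0.953) and *Hlf* (-0.972) ran opposite, as *Dbp* did. Of 19 rhythmic liver output genes 2 ran with *Arntl* and 6 opposite, 42.1% against 2.81% of all tested genes. *Insig2*, a brake on sterol synthesis (r = 0.989), and *Ppard* (0.818) ran with *Arntl*, and *Cyp7a1*, the rate-limiting enzyme of bile acid synthesis (-0.991), *Alas1* (-0.97), *Usp2* (-0.939), *Rgs16* (-0.931), *Nampt* (-0.93) and *Wee1* (-0.928) opposite. Of 12 feeding and fasting genes 2 ran opposite to *Arntl*: *Cpt1a*, for mitochondrial fatty acid entry (r = -0.942), and *Srebf1*, a regulator of lipogenesis (r = -0.869). By rank, adjusted over all genes, 6 of these list genes did not pass (adjusted p of rho, exact test, 0.106 for *Nfil3*, 0.0593 for each of *Hlf*, *Ppard*, *Wee1* and *Srebf1*, and 0.0510 for *Cpt1a*). After adjustment 0 of 6 other loop genes (*Per1* r = -0.883, adjusted p = 0.0619), 0 of 17 kinases, ligases and cofactors, 0 of 8 body temperature genes (*Rbm3* r = -0.912, adjusted p = 0.0962) and 0 of 7 glucocorticoid response genes passed the exact test, where 3, 1, 3 and 0 had an unadjusted exact p under 0.05.

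**Figure D5:**
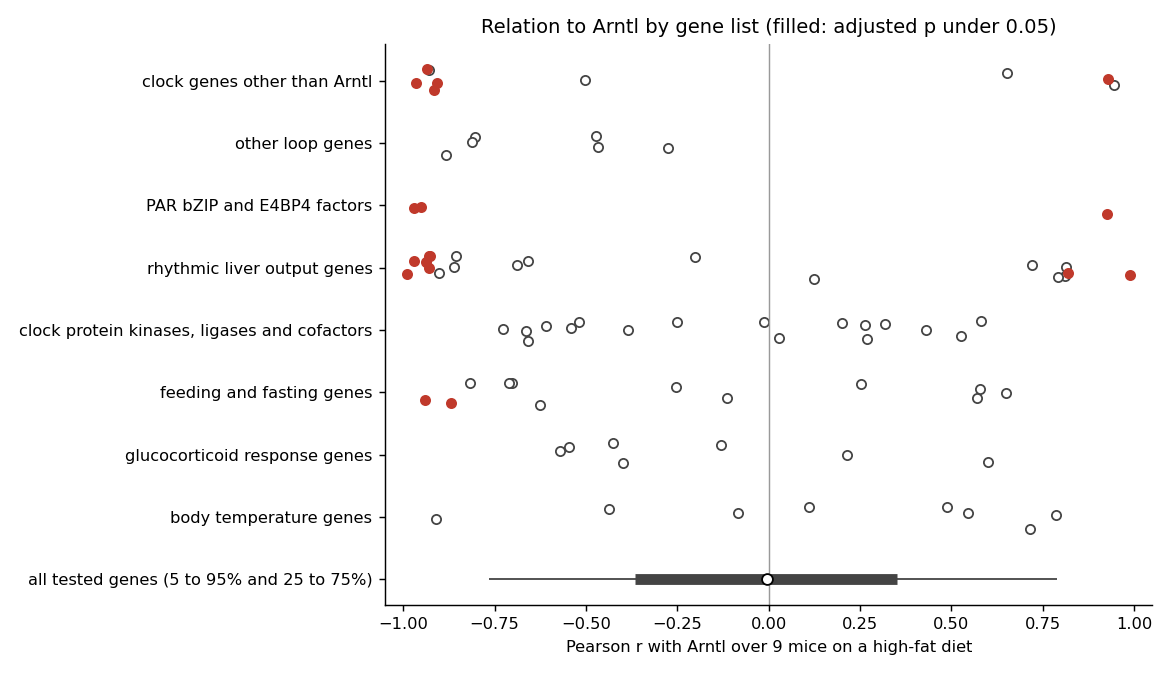
Pearson's r with *Arntl* over the 9 high-fat mice for each tested gene of each list, with filled points at an adjusted p under 0.05, a thick bar from the lower to the upper quartile of all tested genes and a thin bar from their 5% to their 95% point. The 3 PAR bZIP and E4BP4 factors lie at both ends (-0.972 to 0.926), and the median of the 17 kinases, ligases and cofactors is -0.013.

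By diet, in control against ND-fed mice limma called 0 of 6 other loop genes (median log2 fold change 0.03, against -0.043 over all tested genes), with *Per1* at 0.98 and *Cry2* at -0.13. It called 0 of 3 PAR bZIP and E4BP4 factors (median -0.197, *Nfil3* -0.64, *Hlf* -0.197) and 0 of 8 body temperature genes (median -0.077, *Cirbp* -0.41, *Rbm3* -0.198). At an unadjusted p under 0.05 these lists had 0, 0 and 1 genes, and limma-voom called 0 in each. Of the factors 1 was lower without control mouse 3, and of the body temperature genes 1 was lower with a replicate block, without control mouse 1 or without ND-fed mouse 2. Of 17 kinases, ligases and cofactors (median -0.099) 3 were called, 17.6% against 35.3% of all tested genes: *Csnk1e*, a PER kinase, was higher (0.24), and *Sirt1* (-0.30) and *Prkaa2* (-0.22) were lower. These counts became 6 higher and 0 lower with TPM and 0 higher and 0 lower without control mouse 1, control mouse 3 or ND-fed mouse 2, with 0 higher also without ND-fed mouse 1 or 3, 1 lower without ND-fed mouse 1 and 0 lower with a replicate block. Of 19 rhythmic output genes (median 0.318) 7 were called, 36.8%, a share near that of all tested genes (35.3%): 5 were higher (2 without ND-fed mouse 1, 3 without ND-fed mouse 2 or control mouse 2), among them *Rgs16* (4.21), *Cdkn1a* (1.97), *Lpin1* (1.31) and *Pdk4* (1.19), and *Avpr1a* (-1.69) and *Elovl3* (-2.89) were lower. Among feeding and fasting genes *Fgf21* (2.72), *Fasn* (1.10) and *Cpt1a* (1.07) were higher, and of 7 glucocorticoid response genes (median -0.031) *Fkbp5* was higher (0.48) and *Klf9* lower (-0.74), 28.6% against the same 35.3%, with 2 lower with a replicate block or without control mouse 2. In HYA-treated against control mice limma called *Klf9*, 1 of the 72 listed genes (4 at an unadjusted p under 0.05, 2 with limma-voom) against 2.8% of all tested genes, higher by a log2 fold change of 0.65 (SE 0.133, adjusted p = 0.0357). That call was not past the threshold without control mouse 1 (adjusted p = 0.0891) or without HYA-treated mouse 1 (0.0805), 2 (0.156) or 3 (0.0715), nor in a fit of only these 2 groups (0.151) or with no filter (0.0754). Across these fits its log2 fold change stayed between 0.48 and 0.71, and in 2 of them, the fit without HYA-treated mouse 2 and that of only the 2 groups, limma called 0 of all tested genes. In the other lists 1 kinase, ligase or cofactor was past the test as lower with TPM and 1 output gene as higher without control mouse 3. Among the genes of lowest p in the other lists were *Cry2* (0.14), *Rora* (0.069), *Tef* (0.35), *Hlf* (-0.019), *Csnk1d* (-0.18), *Prkaa2* (0.15), *Avpr1a* (0.78), *Cdkn1a* (-0.975), *Cirbp* (0.21), *Hsp90aa1* (-0.23) and *Ppargc1a* (0.13), all as log2 fold changes.

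In LA-treated against control mice limma called 0 of the 72 listed genes (as for 0% of all tested genes, 2 at an unadjusted p under 0.05, 0 with limma-voom), with the lowest p of each list at log2 fold changes of -0.61 for *Per1*, -0.101 for *Cry2*, -0.25 for *Tef*, -0.055 for *Hlf*, -0.087 for *Csnk2b*, 0.083 for *Csnk1e*, -0.705 for *Noct*, 0.48 for *Avpr1a*, -0.42 for *Hspa1b*, -0.16 for *Dnajb1*, -0.49 for *Irs2*, -0.52 for *Pck1*, -0.298 for *Fkbp5* and -0.17 for *Zbtb16*. Between HYA-treated and LA-treated mice it called 0 of 72 (0.487% of all tested genes, 6 at an unadjusted p under 0.05, 1 with limma-voom), with, among those of lowest p, 0.24 for *Cry2*, 0.145 for *Rora*, 0.604 for *Tef*, -0.114 for *Nfil3*, -0.154 for *Csnk1d*, -0.13 for *Fbxw11*, -1.03 for *Cdkn1a*, 0.302 for *E2f8*, -0.26 for *Hsp90aa1*, 0.23 for *Cirbp*, 0.65 for *Pck1*, 0.58 for *Klf9* (adjusted p = 0.0718) and 0.26 for *Fkbp5*. Against ND-fed mice limma called 10 of the 72 with HYA, where 16.6% of all tested genes were called, and 17 with LA, where 31.1% were, and single lists lay on both sides of those shares. Among feeding and fasting genes *Fgf21* (2.73 with HYA and 2.55 with LA), *Cpt1a* (1.15 and 0.90) and *Fasn* (0.97 and 1.29) were called higher than in ND-fed mice in both comparisons.

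Over the 12 mice and 9921 candidate genes, the patterns most like *Arntl* by Pearson's r were *Gldc* (0.983), *Clpx* (0.983), *Asap2* (0.975), *Chka* (0.972) and *Nedd4l* (0.968). With diet means removed they were *Osgin1* (0.991), *Pnkd* (0.989), *Dpp9* (0.988), *Clpx* (0.987) and *Tars* (0.987). Those most like *Dbp* were *Tef* (0.942), *Nhlrc2* (0.937), *Myo18a* (0.934), *Rab11fip2* (0.933) and *Clmn* (0.933), and with diet means removed *Clmn* (0.98), *Tef* (0.976), *Tmco4* (0.975), *Fgfrl1* (0.975) and *Rab11fip2* (0.971).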

How the data were processed

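Livers of 12 mice, 3 per diet, were analysed as FPKM values deposited by the authors; the submitters' processing notes name fastp, HISAT2 2.0.5, featureCounts 1.5.0-p3 and build GRCm38, and the strand setting is not given in the sources used here. The methods of the study name TPM as the measure; the column sums, 342146 to 429286, showed FPKM, and TPM was run as an alternative, with which neither clock gene call of control against ND-fed mice passed. The 11083 genes whose average over all mice reached 1 FPKM were fitted together with limma 3.58.1 (R 4.3.3; trend, empirical Bayes, two-sided) on log2(FPKM + 1), with Benjamini-Hochberg adjustment over all of them and calls at an adjusted p under 0.05. Correlations with *Arntl* used exact permutation over 9 mice and were adjusted over all genes, in place of the planned adjustment over the 9 pairs alone. *Clock* and *Per2* passed with the planned adjustment and not over all genes. Members and lists were chosen with earlier results of these data known. Named genes were the 10 members; of each list up to 6 genes past the test with the lowest p, or the 2 with the lowest p where none passed; the 5 genes most like *Arntl* and *Dbp*; the most abundant marker of each list; and genes overlapping a member. In the correlations every listed gene past the test is named, and *Per1* and *Rbm3* were named after their values were seen; some list genes that the rule takes are not reported. Fragments were recovered from the FPKM steps, and intervals on them cover counting error only. The code was tested on simulated data with the same spread setting for every gene. Larger changes were recovered more often than smaller ones, many of which were missed, and the share of false calls was above the threshold set. Some calls made here may therefore be false, and a comparison without calls does not exclude small changes. For clock genes that varied widely between mice it does not exclude larger ones either. In HYA-treated against control mice the 95% interval of *Dbp* (limma) ran from -1.18 to 2.40. Alternatives were another pseudocount, no filter, TPM, median-ratio scaling, a replicate block, only the 2 groups compared, limma-voom, an added fold threshold and leaving out each mouse.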

Additional observations from a re-analysis of the deposited data

How the results depend on the processing

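Of 1005 alternative values of 85 results, 905 kept their direction and their side of the threshold, or for counts stayed within 1.5 times. Many of these results made no call, and staying without one counted as unchanged, so that share does not describe how stable the calls were. The count of clock genes lower in control than in ND-fed mice, 2, became 1 with no filter, 0 with TPM, 1 with only the 2 groups compared, 1 with limma-voom and 0 with an absolute log2 fold change above 1, and 1 to 3 when a mouse was left out; the count higher was 0 to 1. For HYA-treated against ND-fed mice the count lower, 0, became 1 with only the 2 groups compared and 0 to 1 without a mouse; for LA-treated against ND-fed mice, 1 became 0 with TPM and with the fold threshold, and 0 to 1 without a mouse. Where no call was made, the sign of a log2 fold change often turned. *Per2* in HYA-treated against LA-treated mice went from 0.07 to -0.048 with TPM.

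Leaving out a mouse gave these ranges of log2 fold change. Control against ND-fed: *Nr1d2* -0.17 to 0.33 and *Dbp* -0.17 to 1.48. HYA-treated against control: *Arntl* -0.29 to 0.63, *Clock* -0.038 to 0.305, *Cry1* -0.335 to 0.15, *Per2* -0.68 to 0.21, *Per3* -0.49 to 0.67, *Nr1d2* -0.044 to 0.456, *Dbp* -0.48 to 1.17 and *Ciart* -0.57 to 0.835. LA-treated against control: *Cry1* -0.31 to 0.18, *Per2* -0.75 to 0.033, *Per3* -1.015 to 0.082, *Nr1d1* -0.18 to 0.044, *Nr1d2* -0.445 to 0.055 and *Dbp* -1.32 to 0.33. HYA-treated against LA-treated: *Clock* -0.33 to 0.013, *Cry1* -0.24 to 0.12, *Per2* -0.34 to 0.48 and *Ciart* -0.021 to 1.38. The cause was not tested. All 36 alternative values of the correlations with *Arntl* other than leaving out a mouse kept their side of an unadjusted exact p of 0.05, as did 80 of 81 that left out a mouse.

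With a replicate block the control against ND-fed calls of *Clock* (adjusted p = 0.0237) and *Nr1d1* (0.0420) and the LA-treated against ND-fed call of *Nr1d1* (0.0302) were past the test. The labels do not say that a number joins mice of different diets: over 18 pairs of mice with the same number, r of residuals ran from -0.396 to 0.294, above 0.1 in 3. Depth limits *Npas2* and *Ciart* most, with lowest values on 3 and 12 fragments.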
